A study of Rattus norvegicus with 12 samples.

Results

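The cytochrome P450 genes of families 1, 2 and 4, without the Cyp2c genes and Cyp4a1, were followed in cultured rat hepatocytes with and without the glucocorticoid dexamethasone. Members were all probes whose gene name in the array files starts with Cyp1, Cyp2 or Cyp4 and a letter. This gave 41 probes for 33 genes (3 Cyp1, 22 Cyp2 and 8 Cyp4 genes), out of 41012 probes and 35539 gene names on the array. Testing needed a signal well above background in every array of 1 group or more, and 30 of the 33 genes met this. The other 3, Cyp2a3, Cyp2g1 and Cyp4x1, had no array above background among the 12. Names were brought up to date through their RefSeq accessions, so a gene that the files call Cyp2f2, for example, is given here as Cyp2f4.

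Hepatocytes came from livers of Sprague-Dawley rats aged 11 weeks, with no genetic change, and were plated on collagen and kept in serum-free medium before treatment. The 4 groups of 3 arrays were male vehicle, male dexamethasone, female vehicle and female dexamethasone. Vehicle was 0.01% ethanol, dexamethasone was given at 100 nM, and both lasted 6 h. Sex was taken from the sample titles, because a separate gender label reads male for all 12 samples. The labels do not say whether replicates were separate animals or dishes, so the p-values rest on a spread between samples that can be technical.

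Every value below is a log2 spot signal minus the 75th percentile of its array, so a level of 0 is that percentile and a difference of 1 is a doubling. All 11 listed hepatocyte markers were above background on all 12 arrays, with a summed log2 level between 10.09 and 11.18. The share of probes above background was 46.0% to 55.7% on the male vehicle arrays and 66.5% to 80.4% on the others. The median SD over genes was 0.39 in male vehicle and 0.16 to 0.25 in the other groups. All 3 male vehicle arrays shared slide 1 with replicate 1 of male dexamethasone. Replicates 2 and 3 of that group shared slide 2 with female vehicle replicates 1 and 2, and the other 4 female arrays were on slide 3. No slide held both sexes under the same treatment. Replicate 1 of male dexamethasone was the only dexamethasone array on slide 1, and female vehicle replicate 3 the only vehicle array on slide 3. With slide as a block, male responses and vehicle sex differences rest on the first of these arrays. Female responses and dexamethasone sex differences rest on the second, and differences between the responses rest on both. Of the 30 tested genes, 22 were above background on all 12 arrays.

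Cytochromes P450 are haem enzymes of the endoplasmic reticulum that oxidise drugs, steroids, fatty acids and pollutants with electrons from the reductase Por. Cyp1 genes are the classic targets of the aryl hydrocarbon receptor, Cyp2b genes of the xenobiotic receptor CAR, and Cyp4a genes of the fatty acid receptor PPARalpha. Several rat liver P450 genes differ between the sexes under the control of growth hormone. Glucocorticoids act through the receptor Nr3c1 and raise the levels of several xenobiotic receptors in hepatocytes.

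Members of a subfamily can be so alike that a 60-base probe does not keep them apart, and 3 pairs of probes for different genes shared over 75% of their overlapping bases. The probes of Cyp2a1 and Cyp2a2 are shown because these genes differed in what was measured while 51 of 60 bases were the same. They lie on the plus strand of build rn3 at chr1:82093167-82093226 and chr1:82139063-82139122. Capitals mark the 9 bases that differ.
Cyp2a1: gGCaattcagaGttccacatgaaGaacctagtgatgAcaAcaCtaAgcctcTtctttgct
Cyp2a2: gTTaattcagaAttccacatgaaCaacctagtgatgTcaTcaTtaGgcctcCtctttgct

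The probes of Cyp2b12 and Cyp2b21 shared 39 of the 44 bases over which they overlap. They are shown because levels of the Cyp2b genes, by the brightest probe of each, lay in the same direction between the sexes. They lie at chr1:81868958-81869017 and chr1:81659612-81659671, both on the plus strand of rn3. Capitals mark the 5 differing bases within the overlap.
Cyp2b12: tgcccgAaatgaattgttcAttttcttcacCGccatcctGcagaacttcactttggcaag
Cyp2b21: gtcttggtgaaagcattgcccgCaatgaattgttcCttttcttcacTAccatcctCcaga

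The Cyp2d3 probe, which showed the widest sex difference by fold of the measured members, lies at chr7:120815538-120815597 on the minus strand of rn3. No probe of another member shared 60% or more of its bases with it. It is printed without capitals.
Cyp2d3: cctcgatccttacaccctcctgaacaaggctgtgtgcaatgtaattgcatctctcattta

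The first question was what dexamethasone did to these genes within each sex. In males 3 of 30 genes passed an adjusted p of 0.05 (limma, over all 26542 genes), 1 higher and 2 lower, where 10.1% of all genes passed (5.21% higher and 4.88% lower). Of the 2 lower, Cyp4f5 was measured in both groups, while Cyp1b1 was below background on all 6 male arrays, so that its call is counted but shows no measured response. In females 2 of 30 passed, both higher, where 4.13% of all genes passed (3.00% higher and 1.13% lower). The median difference was 0.02 over the members and -0.07 over all genes in males, and 0.33 and -0.02 in females. In females 27 of 30 differences were above 0, with Cyp2r1 at 0.00 among them, while 47.4% of all genes were above 0. In males 17 of 30 were above 0, against 44.5% of all genes. With each array centred on its median instead, 24 of the 30 were above 0 in females and 14 in males. With pairs of the same replicate number within each sex as a replicate block, 6 members passed in males and 3 in females. Of all genes 4173 and 1793 passed with that block, against 2678 and 1096 without it. None of the 30 genes passed the test of a different response in the sexes, where 0.105% of all genes did, and 3 of them had an unadjusted p under 0.05.

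**Figure D1:**
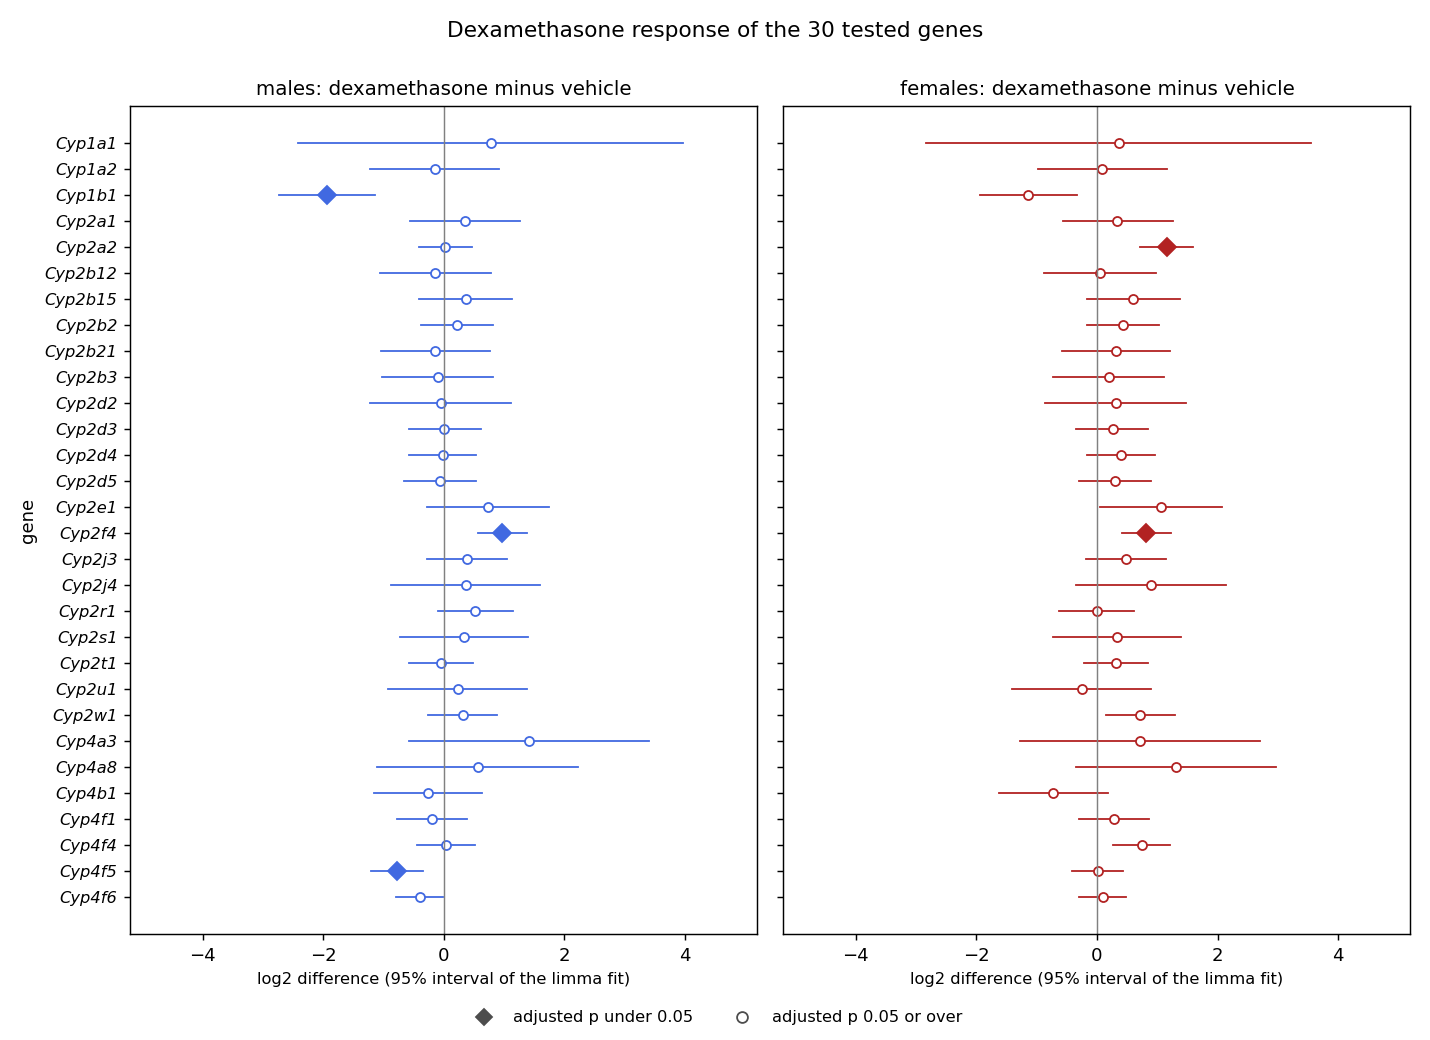
Log2 difference, dexamethasone minus vehicle, for each of the 30 tested genes in males (left) and females (right), with the 95% interval of the limma fit; filled diamonds passed an adjusted p of 0.05. Cyp2f4 passed in both sexes, at 0.97 and 0.82. Cyp1b1 in males is drawn at -1.94, although its signal was below background in both male groups.

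Cyp2f4, a P450 known for oxidising naphthalene and best known from the airways, rose in both sexes. In males its level was 1.88, 2.03 and 1.73 in vehicle and 2.79, 2.98 and 2.80 in dexamethasone. In females it was 1.26, 1.82 and 1.90 in vehicle and 2.35, 2.52 and 2.58 in dexamethasone. In each sex every dexamethasone array was above every vehicle array. Groups that did not overlap, in either direction, were seen for 4 of 30 members in males and 11 in females, against 25.4% and 33.8% of all genes. The rise was 0.97 ± 0.19 (SE) in males, which is 1.96-fold (adjusted p = 0.011), and 0.82 ± 0.19 in females, which is 1.77-fold (adjusted p = 0.035). The responses differed by -0.15 (95% interval -0.73 to 0.43). Cyp2f4 levels did not pass the test between the sexes in vehicle (-0.22, adjusted p = 0.47) or in dexamethasone (-0.37, adjusted p = 0.32). A slide block gave rises of 0.91 in males (adjusted p = 0.12) and 0.58 in females (adjusted p = 0.43). These are the same contrasts as within slide 1 and within slide 3, where 1 array of a treatment stands against 3 of the other. In females the Cyp2f4 call was lost, with an adjusted p of at most 0.13, in 6 of the 12 fits that left out 1 array (each female dexamethasone replicate, female vehicle replicate 1 or 3, or male dexamethasone replicate 3).

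**Figure D2:**
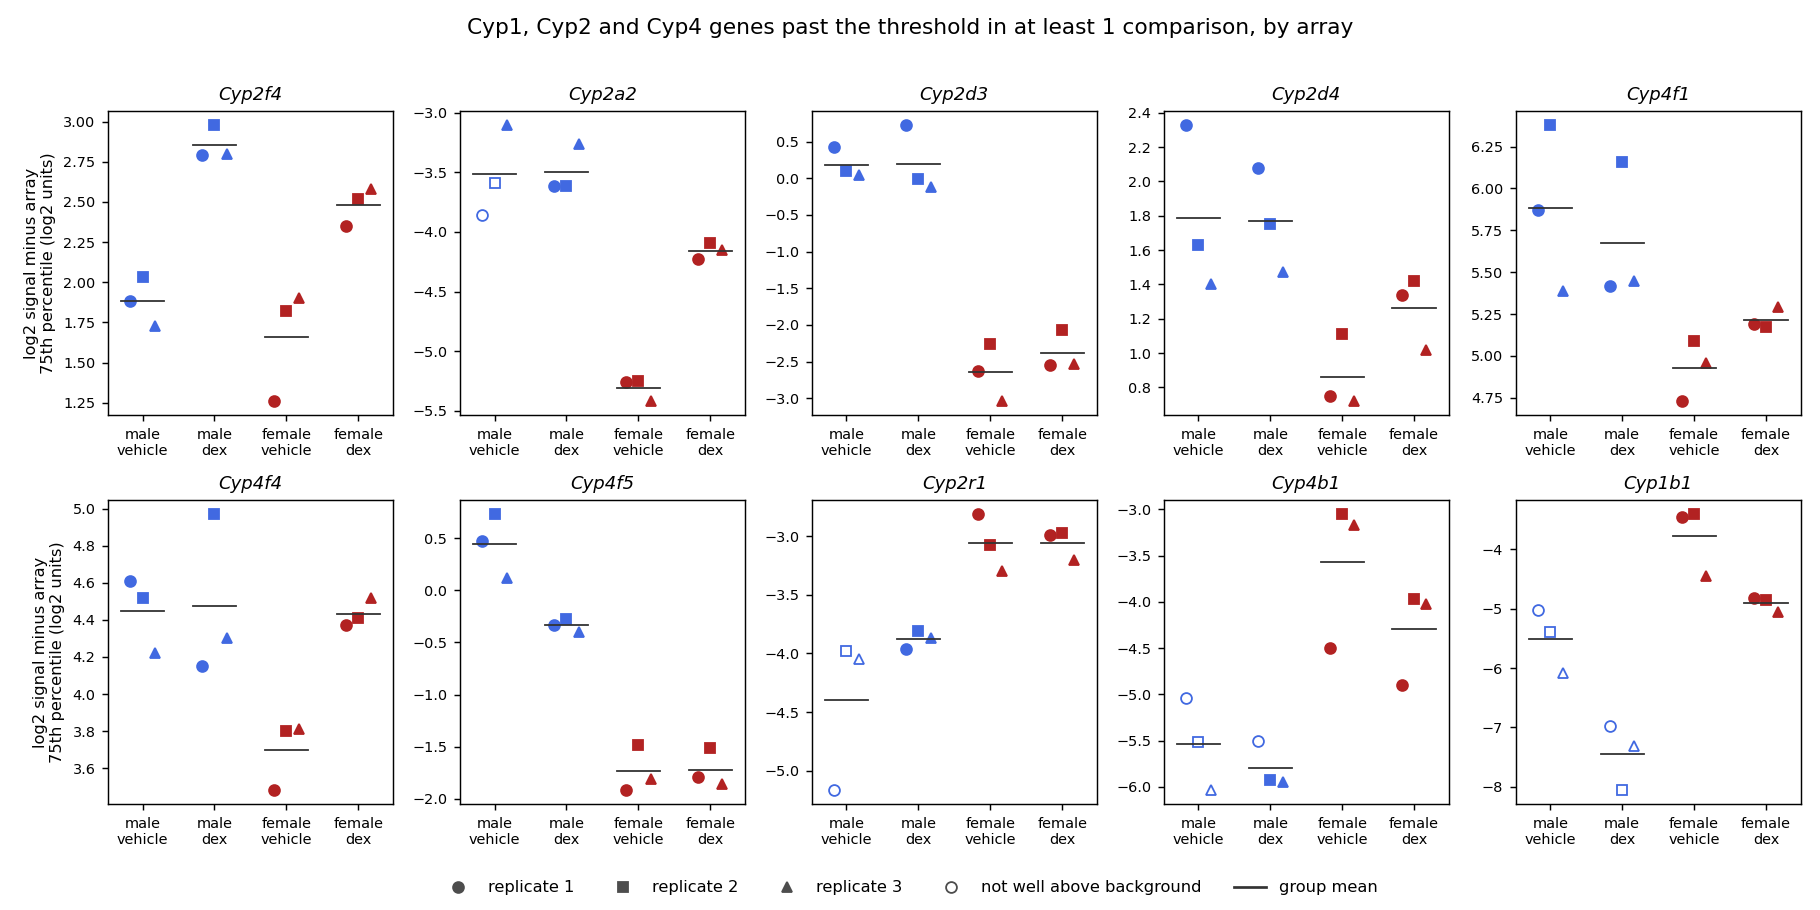
Log2 level (signal minus the array's 75th percentile) of the 10 genes past the threshold in at least 1 comparison, by array; symbols give the replicate number, open symbols are not well above background and bars are group means. Cyp2f4 is higher in dexamethasone in both sexes, Cyp2a2 is higher in dexamethasone than in vehicle in females, and Cyp2d3 and Cyp4f5 are lower in all 6 female arrays than in all 6 male arrays.

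Cyp2a1 and Cyp2a2 are steroid hydroxylases of rat liver, and Cyp2a2 is known as a male-predominant form. Cyp2a2 rose in females, from -5.26, -5.25 and -5.42 in vehicle to -4.23, -4.09 and -4.15 in dexamethasone. In males it was -3.86, -3.59 and -3.10 in vehicle and -3.61, -3.61 and -3.26 in dexamethasone, and only 1 of the 3 male vehicle arrays was well above background. The 3 male dexamethasone arrays and the 1 measured male vehicle array were above all 6 female arrays. The female rise was 1.16 ± 0.20, or 2.23-fold (adjusted p = 0.011), while the fitted male difference of 0.02 (adjusted p = 0.96) rests on vehicle arrays mostly below background. The fitted difference between these responses, 1.14, has the same limit and did not pass over all genes (adjusted p = 0.11). It passed without the filter on dim probes (adjusted p = 0.019), a setting where 6682 genes passed this test, against 28 with the filter. Between the sexes in vehicle the fit gave -1.80 (adjusted p = 0.00077), but 2 of the 3 male values behind it were not above background, so its size was not measured. In dexamethasone, where all 6 arrays were above background, the difference was -0.66 ± 0.20 (adjusted p = 0.10). Blocking on slide gave a female rise of 1.27 (adjusted p = 0.088) and a sex difference in vehicle of -1.92 (adjusted p = 0.074). The rise within slide 3 is the same contrast as the blocked one, of 3 dexamethasone arrays against 1 vehicle array. The rise in females did not pass without female dexamethasone replicate 2 (adjusted p = 0.055) or without female vehicle replicate 3 (adjusted p = 0.053).

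Cyp2a1, whose probe resembles that of Cyp2a2, passed in no comparison. Its level was -0.97, -0.27 and -0.12 in male vehicle, -0.68, 0.75 and -0.36 in male dexamethasone, -1.08, -0.22 and -0.83 in female vehicle, and -0.88, 0.25 and -0.47 in female dexamethasone. The groups overlapped throughout. The sex difference in vehicle was -0.26 (95% interval -1.17 to 0.66).

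Among the Cyp1 genes, which oxidise polycyclic aromatic compounds, Cyp1a1 varied more between replicates than with treatment. In males it was -4.41, 1.29 and -1.04 in vehicle and -3.35, 1.87 and -0.34 in dexamethasone, and the lowest of these was not above background. In females it was -1.68, -0.12 and -0.47 in vehicle and -1.61, 0.50 and -0.10 in dexamethasone. In both sexes replicate 1 was lowest and replicate 2 highest under both treatments. The range over the male vehicle arrays was 5.70 log2 units, while the 3 differences between arrays of the same number spanned 0.48. The treatment difference was 0.78 ± 1.45 in males (adjusted p = 0.78) and 0.36 ± 1.45 in females (adjusted p = 0.96). Same-numbered arrays deviated together within each sex, and with these pairs as a replicate block the male rise passed at 0.78 ± 0.16 (adjusted p = 0.027).

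Cyp1a2, a neighbour of Cyp1a1 on chromosome 8 that oxidises caffeine and aromatic amines, had another order of replicates. It was 0.71, 1.22 and 2.04 in male vehicle, 0.44, 0.91 and 2.16 in male dexamethasone, -0.54, -0.26 and 0.19 in female vehicle, and -0.69, -0.23 and 0.58 in female dexamethasone. Replicate 3 was highest in each group, and all female vehicle arrays lay below all male vehicle arrays. Dexamethasone gave -0.15 (95% interval -1.22 to 0.92) in males and 0.09 (-0.98 to 1.16) in females. The sex difference was -1.53 ± 0.48 in vehicle (adjusted p = 0.060) and -1.28 ± 0.48 in dexamethasone (adjusted p = 0.19). In dexamethasone, where same-numbered arrays of the sexes also deviated together, the latter passed with the replicate block (adjusted p = 0.0069). A second Cyp1a2 probe gave sex differences of -1.13 and -1.15.

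**Figure D3:**
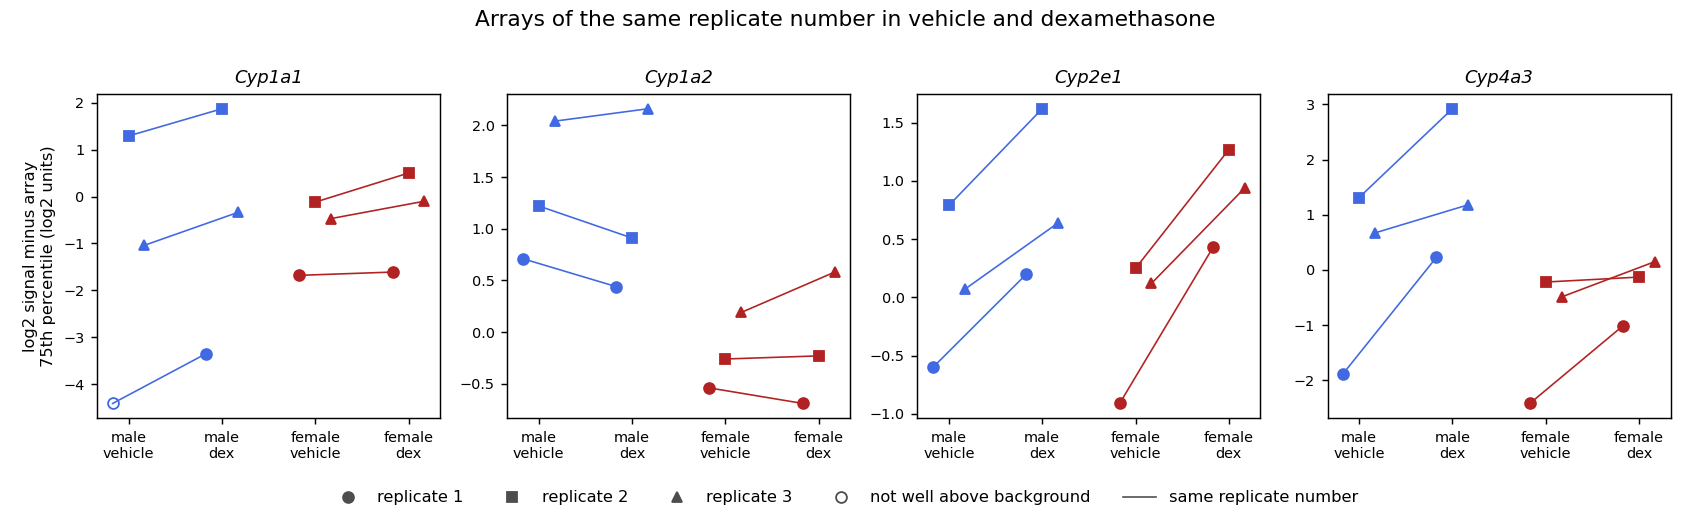
Log2 level of Cyp1a1, Cyp1a2, Cyp2e1 and Cyp4a3 by array, with lines joining vehicle and dexamethasone arrays of the same replicate number within a sex. All 6 lines of Cyp1a1 and of Cyp2e1 slope upward, while the distance between the lines of male Cyp1a1 spans over 5 log2 units (5.70 in vehicle, 5.22 in dexamethasone).

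Cyp1b1 is a steroid and hydrocarbon oxidase that is expressed mostly outside hepatocytes. None of the 6 male arrays had it above background, at -5.03, -5.40 and -6.09 in vehicle and -6.97, -8.06 and -7.31 in dexamethasone. It was above background on all 6 female arrays, at -3.46, -3.41 and -4.45 in vehicle and -4.82, -4.86 and -5.06 in dexamethasone. Every female array was above every male array of the same treatment. The male treatment call (-1.94, adjusted p = 0.010) is therefore given with no fold, and the female difference was -1.14 ± 0.36 (adjusted p = 0.12). Where a whole group is not above background, a fold is a lower bound, taken against the higher of the dim probe's own signal and the lowest signal above background on each array. Female levels were at least 1.04-fold higher in vehicle and at least 3.32-fold higher in dexamethasone. The fitted sex differences were 1.73 in vehicle (adjusted p = 0.013) and 2.54 in dexamethasone (adjusted p = 0.0069). They use the male signals below background, so these p-values do not test the bounds. The gene was kept for testing through the female groups alone. With a slide block the fitted differences were 2.79 (adjusted p = 0.066) and 3.79 (adjusted p = 0.060). With normexp background correction they were 0.23 and -0.03, and the Cyp1b1 calls were lost. The vehicle call was also lost without female vehicle replicate 1 (1.58, adjusted p = 0.053), and a second, dimmer Cyp1b1 probe gave 0.87 in vehicle (adjusted p = 0.15) and 1.82 in dexamethasone (adjusted p = 0.028).

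Markers of stellate cells and fibroblasts moved with the sex difference of Cyp1b1. In vehicle 6 of the 10 tested markers (Pdgfrb, Lrat, Vim, Col3a1, Dcn and Col1a2) were higher in females and none lower, with a median of 1.92, and in dexamethasone 2 of 10 (Pdgfrb and Lrat) were higher, against 5.82% and 1.18% of all genes. With slide as a block Pdgfrb (adjusted p = 0.021) and Col3a1 (adjusted p = 0.034) passed in vehicle; the other 4 did not (adjusted p = 0.056 to 0.10), nor did either in dexamethasone (0.053 and 0.13). The Col1a2 call held in 3 of the 12 fits without 1 array. The summed log2 level of the markers was 2.80 to 3.20 in male vehicle and 3.75 to 4.34 in female vehicle, and 3.06 to 3.52 against 3.90 to 4.10 in dexamethasone. Pdgfrb and Lrat were not above background in male vehicle, and Dcn was above it on 1 of the 3 arrays there. Their vehicle p-values, also with the slide block, use those male signals and do not test a measured difference. The median includes them. Pdgfrb was above background on 2 of 3 male dexamethasone arrays, so it was kept for testing through the female groups alone. Vim, Col3a1 and Col1a2 were above background on all 3 male vehicle arrays. In bulk samples fewer cells of a type and less RNA per cell cannot be told apart, and the part of these cells in the Cyp1b1 difference was not tested.

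The Cyp2b genes encode the phenobarbital-inducible enzymes of rat liver and their relatives. None of the 5 tested Cyp2b genes passed in any comparison, where 13.8% of all genes passed between the sexes in vehicle and 2.90% in dexamethasone. By the brightest probe of each, all 5 lay above 0 in females relative to males, by 0.26 to 1.03 in vehicle and by 0.48 to 1.41 in dexamethasone. Other Cyp2b2 probes, given below, did not all do so. Cyp2b3 was 3.67, 4.70 and 4.73 in male vehicle, 3.49, 4.45 and 4.85 in male dexamethasone, 4.88, 5.92 and 5.39 in female vehicle, and 5.13, 5.87 and 5.79 in female dexamethasone. The female arrays of Cyp2b3 lay above the male arrays under both treatments, by 1.03 (adjusted p = 0.12) and 1.33 (adjusted p = 0.11).

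Cyp2b21 showed the widest of these differences in dexamethasone, 1.41 ± 0.41 (adjusted p = 0.094), with male arrays at -0.01, 0.90 and 1.36 and female arrays at 1.66, 2.56 and 2.27. Cyp2b15 was -0.41, 0.25 and 0.42 in male and 0.69, 1.61 and 1.29 in female dexamethasone, a difference of 1.11 ± 0.35 (adjusted p = 0.12). With the replicate block, Cyp2b3, Cyp2b15 and Cyp2b21 passed in dexamethasone (adjusted p = 0.0067, 0.012 and 0.0075), as did 8 members in all, against 3 without it. Of all genes 1486 passed with that block, against 771 without it. Cyp2b12, which shares probe sequence with Cyp2b21, differed by 0.88 ± 0.42 in dexamethasone (adjusted p = 0.30).

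Cyp2b2, the phenobarbital-inducible form with 4 probes on the array, showed the narrowest sex differences of the group by its brightest probe. It was 0.55, 0.87 and 0.32 in male vehicle, 0.42, 1.22 and 0.76 in male dexamethasone, 0.47, 1.29 and 0.78 in female vehicle, and 0.99, 1.55 and 1.29 in female dexamethasone. The groups overlapped in all 4 comparisons of 2 groups. Dexamethasone gave 0.22 (95% interval -0.38 to 0.82) in males and 0.43 (-0.17 to 1.03) in females. The 4 probes gave 0.22 to 0.80 in males and 0.43 to 1.55 in females, and none of them passed. Between the sexes the other Cyp2b2 probes gave -0.08, 0.10 and -0.10 in vehicle and 0.08, 0.09 and 1.05 in dexamethasone, none past the threshold.

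**Figure D4:**
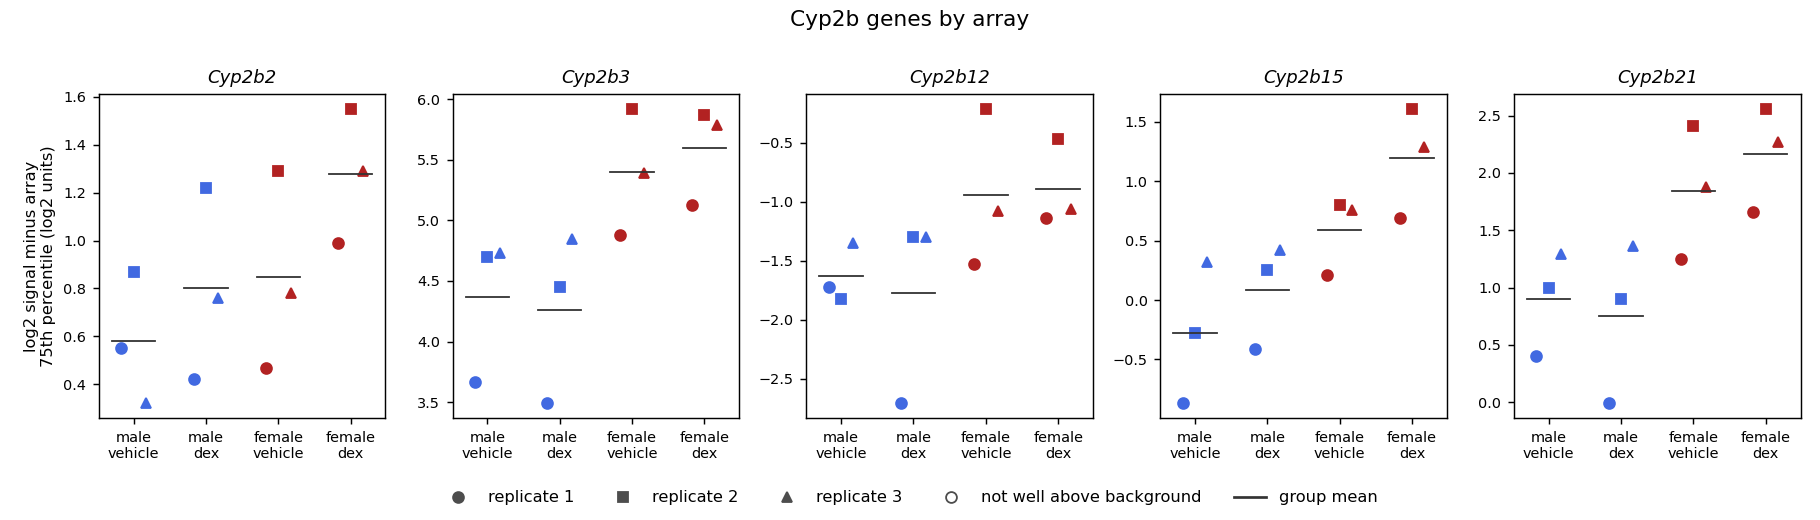
Log2 level (signal minus the array's 75th percentile) of the 5 tested Cyp2b genes by array; symbols give the replicate number and bars are group means. In dexamethasone the female arrays lie above the male arrays for Cyp2b3, Cyp2b12, Cyp2b15 and Cyp2b21, and the groups of Cyp2b2 overlap.

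Cyp2d enzymes oxidise many amine drugs. All 4 tested Cyp2d genes lay below 0 in females relative to males in both treatments, and 2 of the 4 passed in vehicle, where 7.95% of all genes passed as lower. Cyp2d3 was 0.42, 0.10 and 0.04 in male vehicle and 0.73, -0.01 and -0.12 in male dexamethasone. It was -2.63, -2.26 and -3.04 in female vehicle and -2.55, -2.07 and -2.54 in female dexamethasone. Every male array was above every female array by a wide margin, and treatment left the order as it was. Females were lower by a log2 difference of -2.83 ± 0.27 in vehicle, 7.10-fold (adjusted p = 0.00039), and of -2.58 ± 0.27 in dexamethasone, 5.99-fold (adjusted p = 0.0011). The slide-blocked values were -1.84 (adjusted p = 0.072) and -1.72 (adjusted p = 0.14). Dexamethasone gave 0.01 (95% interval -0.58 to 0.61) in males and 0.26 (-0.34 to 0.85) in females.

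Cyp2d4, a form also known from brain, was 2.33, 1.63 and 1.40 in male vehicle, 2.08, 1.75 and 1.47 in male dexamethasone, 0.75, 1.11 and 0.72 in female vehicle, and 1.34, 1.42 and 1.02 in female dexamethasone. The female arrays lay below the male arrays under both treatments. The difference passed in vehicle at -0.92 ± 0.25 (adjusted p = 0.037), not in dexamethasone (-0.51, adjusted p = 0.33), and a second probe gave -0.52 in vehicle (adjusted p = 0.30). The call did not hold with a slide block (-0.39, adjusted p = 0.75) or in 8 of the 12 fits without 1 array, where the adjusted p reached 0.11; these 8 left out any of the 6 female arrays or male vehicle replicate 1 or 2. Cyp2d2 and Cyp2d5 differed by -1.02 (adjusted p = 0.23) and -0.69 (adjusted p = 0.12) in vehicle. The accessions of the Cyp2d5 probe also name Cyp2d1, so these genes are not kept apart here. Over the 4 Cyp2d genes dexamethasone gave -0.06 to 0.01 in males and 0.26 to 0.40 in females, none past the threshold; the second Cyp2d4 probe gave 0.60 and 0.65 (adjusted p = 0.26 and 0.35).

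Cyp2e1, which oxidises ethanol and paracetamol, was higher in dexamethasone on the array of each replicate number. In males it was -0.60, 0.79 and 0.07 in vehicle and 0.20, 1.62 and 0.64 in dexamethasone. In females it was -0.91, 0.25 and 0.12 in vehicle and 0.43, 1.27 and 0.94 in dexamethasone. The male groups overlapped and the female groups did not. The difference was 0.73 ± 0.46 in males (adjusted p = 0.34) and 1.06 ± 0.46 in females (adjusted p = 0.26). With pairs within each sex as a replicate block it passed in both, at 0.73 ± 0.15 (adjusted p = 0.024) and 1.06 ± 0.15 (adjusted p = 0.014). The sexes differed by -0.27 (95% interval -1.28 to 0.74) in vehicle and by 0.06 (-0.95 to 1.07) in dexamethasone.

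Cyp2j enzymes convert arachidonic acid to epoxides. Cyp2j3 was 1.82, 2.01 and 1.81 in male vehicle, 1.79, 3.07 and 1.92 in male dexamethasone, 1.30, 1.43 and 0.83 in female vehicle, and 1.59, 1.76 and 1.65 in female dexamethasone. Female arrays were below male arrays under both treatments, by -0.70 (adjusted p = 0.15) and -0.59 (adjusted p = 0.33). Dexamethasone gave 0.38 in males and 0.48 in females for Cyp2j3, and 0.36 and 0.90 for Cyp2j4, none past the threshold. A second Cyp2j3 probe gave sex differences of -0.27 and -0.53 and responses of 0.86 in males (adjusted p = 0.09) and 0.60 in females (adjusted p = 0.35).

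Cyp2r1, the vitamin D 25-hydroxylase, was close to background in males. It was -5.17, -3.98 and -4.05 in male vehicle, all below background, and -3.96, -3.81 and -3.87 in male dexamethasone. In females it was -2.81, -3.07 and -3.30 in vehicle and -2.99, -2.97 and -3.20 in dexamethasone. All 6 female arrays were above all 6 male arrays. Female vehicle was at least 1.50-fold higher than male vehicle. The fitted difference, 1.34 (adjusted p = 0.012), uses male signals below background, so its p-value does not test the bound. In dexamethasone the difference was 0.82 ± 0.28 (adjusted p = 0.15). The vehicle difference was 1.34 with slide as a block (adjusted p = 0.30), 0.03 with normexp (adjusted p = 0.88) and 1.22 without female vehicle replicate 1 (adjusted p = 0.053).

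The remaining Cyp2 genes, Cyp2s1, Cyp2t1, Cyp2u1 and Cyp2w1, passed in no comparison. Cyp2s1 and Cyp2w1 were below background in male vehicle and above it on the 9 other arrays. The sex difference of Cyp2s1 in vehicle is not given, since the male side, higher in the fit, was not measured. The female response of Cyp2w1 was 0.72 ± 0.26 (adjusted p = 0.17). Cyp2u1, a long-chain fatty acid hydroxylase, ranged over 2.76 log2 units in male vehicle, where 1 of 3 arrays was above background. Cyp2t1 was above background on all 12 arrays and differed by at most 0.37 in size, in the difference between the responses (adjusted p = 0.76).

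Cyp4a enzymes hydroxylate fatty acids at the end of the chain. Cyp4a3 was -1.88, 1.31 and 0.67 in male vehicle and 0.23, 2.92 and 1.18 in male dexamethasone, and -2.42, -0.22 and -0.49 in female vehicle and -1.01, -0.13 and 0.15 in female dexamethasone. It was higher in dexamethasone in all 6 pairs of the same number, while the treatment groups overlapped. The difference was 1.41 ± 0.90 in males (adjusted p = 0.35) and 0.71 ± 0.90 in females (adjusted p = 0.81). With the pairs as a replicate block the male rise passed at 1.41 ± 0.36 (adjusted p = 0.044). In dexamethasone the sex difference of -1.77 (adjusted p = 0.33) passed with the replicate block (adjusted p = 0.049).

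Cyp4a8 was -1.51, -0.32 and 1.18 in male vehicle, -1.12, 1.38 and 0.78 in male dexamethasone, -3.69, -1.86 and -2.19 in female vehicle, and -1.27, -1.16 and -1.36 in female dexamethasone. All female vehicle arrays lay below all male vehicle arrays, a difference of -2.36 ± 0.75 (adjusted p = 0.061). In females the dexamethasone arrays lay above the vehicle arrays, a difference of 1.31 ± 0.75 that did not pass (adjusted p = 0.44). Without the filter on dim probes the sex difference in vehicle passed (adjusted p = 0.034), a setting where 12528 genes passed this test, against 3657 with the filter.

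Cyp4b1, a fatty acid hydroxylase best known from lung, was higher in females. It was below background on all male vehicle arrays, at -5.04, -5.52 and -6.04, and at -5.50, -5.93 and -5.95 in male dexamethasone, where 2 of 3 were above background. In females it was -4.50, -3.05 and -3.17 in vehicle and -4.90, -3.97 and -4.02 in dexamethasone, above every male array of the same treatment. Female vehicle was at least 1.20-fold higher. The fitted difference, 1.96 (adjusted p = 0.012), uses male signals below background, so its p-value does not test the bound. Cyp4b1 was kept for testing through the female groups alone. In dexamethasone the difference was 1.50 ± 0.41 (adjusted p = 0.078). The vehicle difference was 2.19 with slide as a block (adjusted p = 0.23) and 0.05 with normexp (adjusted p = 0.89). The stellate cell and fibroblast markers given with Cyp1b1 moved with this difference too, and their part in it was not tested.

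Cyp4f enzymes hydroxylate leukotrienes and other lipid mediators, which ends their signal. Of the 4 tested Cyp4f genes, all were below 0 in female relative to male vehicle and 3 passed, where 7.95% of all genes passed as lower. Cyp4f5 was 0.47, 0.73 and 0.12 in male vehicle and -0.33, -0.28 and -0.40 in male dexamethasone, and -1.92, -1.48 and -1.81 in female vehicle and -1.79, -1.51 and -1.86 in female dexamethasone. The male dexamethasone arrays lay below the male vehicle arrays, and all female arrays lay below both. Cyp4f5 fell in males, with a log2 difference of -0.78 ± 0.19, or 1.71-fold (adjusted p = 0.030), and the female difference was 0.02 (95% interval -0.41 to 0.44). The responses differed by 0.79 ± 0.27 (adjusted p = 0.25). The sex difference was -2.18 ± 0.19 in vehicle, 4.52-fold (adjusted p = 0.00024), and -1.39 ± 0.19 in dexamethasone, 2.61-fold (adjusted p = 0.0059).

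The Cyp4f5 sex differences with slide as a block were -2.13 (adjusted p = 0.061) and -1.27 (adjusted p = 0.29). The male Cyp4f5 difference was -0.77 with that block (adjusted p = 0.23). It is the same contrast as within slide 1, of 1 dexamethasone array against 3 vehicle arrays. The male call for Cyp4f5 was lost, with an adjusted p of up to 0.087, in 5 of the 12 fits without 1 array, namely without any of the 3 male dexamethasone replicates or without male vehicle replicate 1 or 2.

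Cyp4f1 was 5.87, 6.38 and 5.39 in male vehicle, 5.42, 6.16 and 5.45 in male dexamethasone, 4.73, 5.09 and 4.96 in female vehicle, and 5.19, 5.17 and 5.29 in female dexamethasone. Cyp4f4 was 4.61, 4.52 and 4.22 in male vehicle, 4.15, 4.97 and 4.30 in male dexamethasone, 3.48, 3.80 and 3.81 in female vehicle, and 4.37, 4.41 and 4.52 in female dexamethasone. For both genes the female vehicle arrays were the lowest, and for Cyp4f4 the female dexamethasone arrays lay among the male ones. The sex difference in vehicle was -0.95 ± 0.26 for Cyp4f1 (adjusted p = 0.037) and -0.75 ± 0.22 for Cyp4f4 (adjusted p = 0.044). In dexamethasone it was -0.46 (adjusted p = 0.39) for Cyp4f1 and -0.04 (95% interval -0.52 to 0.44) for Cyp4f4.

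The female response of Cyp4f4 was 0.74 ± 0.22 (adjusted p = 0.091), with the groups apart, and the male one 0.03 ± 0.22. The vehicle calls of Cyp4f1 and Cyp4f4 did not hold with a slide block (-1.35, adjusted p = 0.26, and -1.29, adjusted p = 0.18). They were also lost in 8 and 9 of the 12 fits without 1 array, with an adjusted p of at most 0.12 and 0.15. For both genes these left out any of the 6 female arrays or male vehicle replicate 1 or 2, and for Cyp4f4 also male dexamethasone replicate 3. Cyp4f6 passed in no comparison, and its sex difference in vehicle was -0.45 ± 0.18 (adjusted p = 0.11).

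Across the 30 genes, 9 passed the test between the sexes in vehicle. In the fit 3 were higher in females (Cyp1b1, Cyp2r1 and Cyp4b1) and 6 lower (Cyp2a2, Cyp2d3, Cyp2d4, Cyp4f1, Cyp4f4 and Cyp4f5). Of the lower ones, Cyp2a2 was above background on 1 of the 3 male vehicle arrays. The background was 5.82% of all genes higher and 7.95% lower. The 3 that were higher were all below background in male vehicle, so their calls use male signals that were not measured. Cyp1b1 and Cyp4b1 were also kept for testing through the female groups alone. In dexamethasone 3 genes passed, Cyp1b1 higher and Cyp2d3 and Cyp4f5 lower, against 1.18% and 1.73% of all genes. Cyp1b1 was below background on all 3 male arrays there too. The median difference over the members was -0.37 in vehicle and -0.15 in dexamethasone, against -0.06 and 0.02 over all genes. The arrays of the sexes did not overlap for 15 of 30 members in vehicle and 18 in dexamethasone, against 30.8% and 32.2% of all genes. The fitted direction was the same in both treatments for 27 of 30 genes, those with male signals below background included. The share over all genes was not computed for this count. Hepatocyte markers moved with the lower levels in female vehicle: 2 of 11 (Fgb and Ass1) were lower and none higher, with a median of -0.58, and their summed log2 level was 10.09 to 10.53 against 10.74 to 11.18 in males. Neither call held with slide as a block (adjusted p = 0.37 and 0.32). In dexamethasone none of the 11 passed, with a median of -0.17. Other marker lists in vehicle held 2 higher of 13 for Kupffer cells and macrophages. For endothelial cells they held 2 higher and 1 lower of 9. Among these, Itgam (higher, a macrophage marker) and Vwf (lower, an endothelial marker) were each above background on 1 of the 3 male arrays. The lists held 1 higher and 1 lower of 11 for cholangiocytes and none of 6 for lymphocytes. Their part in the sex differences was not tested.

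**Figure D5:**
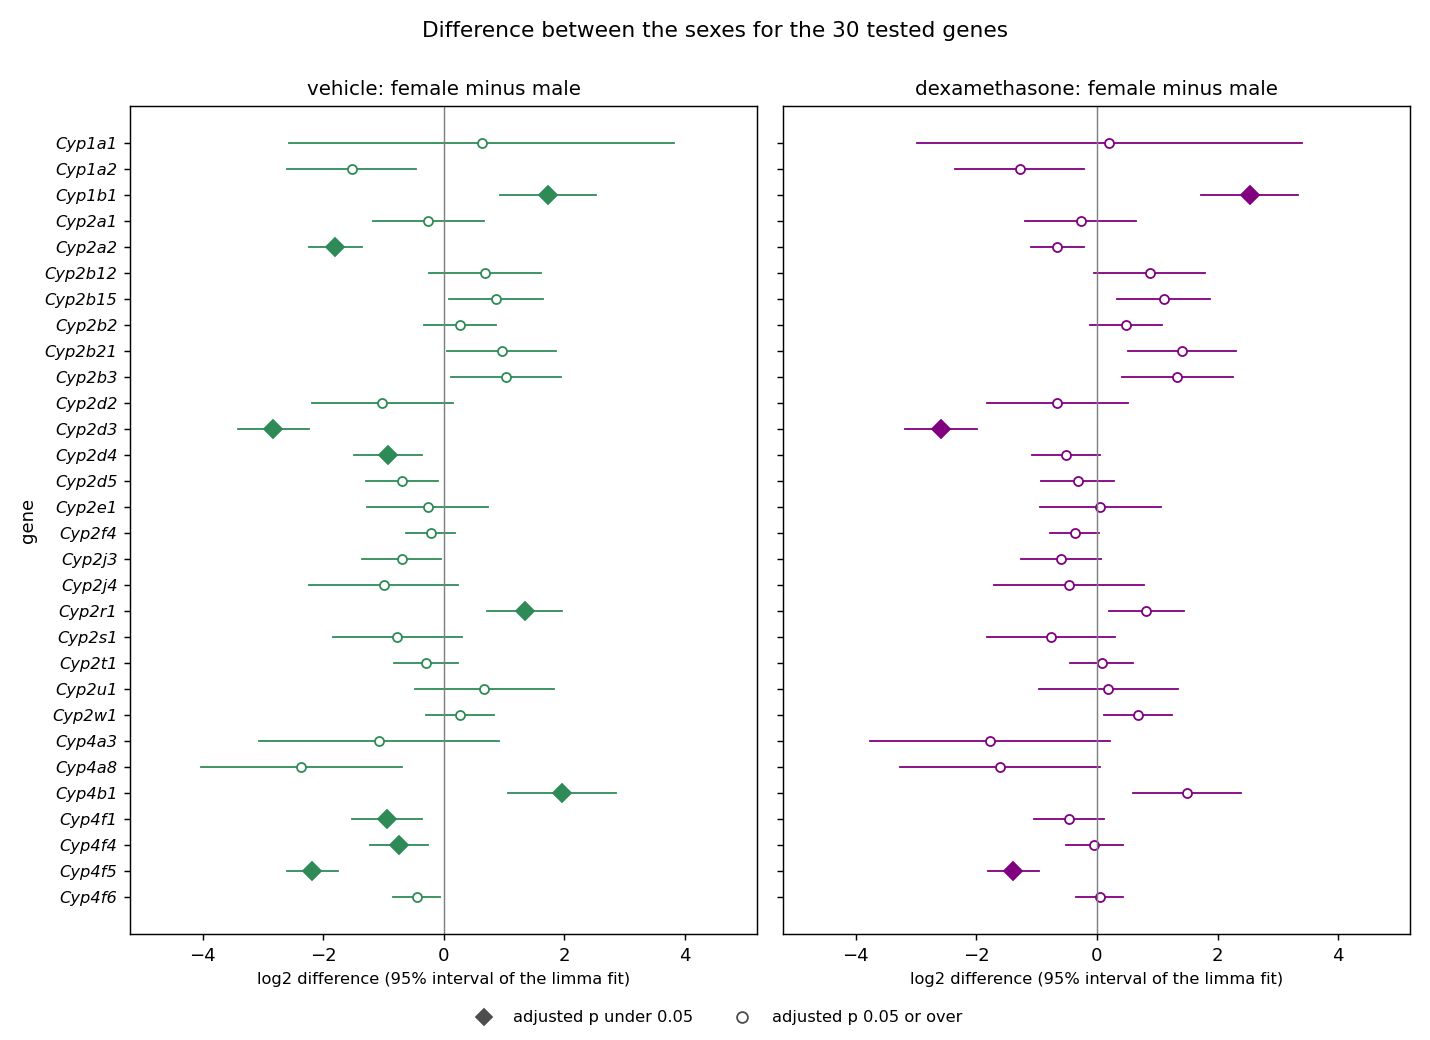
Log2 difference, female minus male, for each of the 30 tested genes in vehicle (left) and dexamethasone (right), with the 95% interval of the limma fit; filled diamonds passed an adjusted p of 0.05. Cyp2d3 lies furthest below 0 in both panels (-2.83 and -2.58), and Cyp1b1, Cyp2r1 and Cyp4b1 are the 3 genes that passed above 0 in vehicle. The vehicle points of Cyp1b1, Cyp2r1, Cyp2s1, Cyp2w1 and Cyp4b1 rest on male signals wholly below background. Those of Cyp2a2 and Cyp2u1 rest on male signals mostly below it, and so does the dexamethasone point of Cyp1b1 wholly.

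With slide as a block, all 17 calls among these genes, that of Cyp1b1 in males included, kept their direction. None passed the threshold, with adjusted p from 0.060 to 0.75. Each of these blocked values rests on 1 array, as the slide layout above sets out. Kept directions and lost calls there are therefore no general test of the calls. Over all genes the block left 472 calls in males, 300 in females, 133 between the sexes in vehicle and 22 in dexamethasone.

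Genes that serve these enzymes were followed through lists. Of 18 P450 partners and haem enzymes, 2 rose in males (Por and Pgrmc2), 1 rose in females (Por) and none fell, with medians of -0.06 and 0.10. Over all genes 5.21% were higher in males and 3.00% in females. Por, the reductase that feeds electrons to all of these P450 enzymes, rose from 3.74 ± 0.17 (SD, n = 3) to 4.34 ± 0.09 in males (0.61, adjusted p = 0.041) and from 3.26 ± 0.08 to 4.37 ± 0.25 in females (1.11, adjusted p = 0.0051). Blocked on slide its differences were 0.59 (adjusted p = 0.27) and 1.17 (adjusted p = 0.068), and the male Por call held in just 2 of the 12 fits without 1 array. Pgrmc2, a haem-binding membrane protein, rose by 0.82 in males (adjusted p = 0.029; 1.13 with slide as a block, adjusted p = 0.080). Between the sexes in vehicle Pgrmc2 was higher in females (1.13, adjusted p = 0.0062) and Cyb5r3 (-0.97, adjusted p = 0.0057) and Pgrmc1 (-0.72, adjusted p = 0.0066) were lower. With the slide block these were 1.58, -0.85 and -0.65, and none passed. Over all genes 5.82% were higher and 7.95% lower in that comparison.

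Of 13 tested xenobiotic receptors and liver factors, Ppara alone passed, rising by 2.28 ± 0.23 in males (adjusted p = 0.00067) and 2.36 ± 0.23 in females (adjusted p = 0.00049). Ppara encodes the receptor that drives Cyp4a genes, and its rise passed with slide as a block in both sexes (2.06, adjusted p = 0.031, and 2.61, adjusted p = 0.014). Of 22 tested PPARalpha target genes, 4 rose and 1 fell in males and 2 rose in females, where 5.21% of all genes were higher and 4.88% lower in males and 3.00% higher in females. Cpt2, which carries fatty acids into mitochondria, rose in males by 1.02 (adjusted p = 0.022; 0.60 with the slide block, adjusted p = 0.35). Pdk4, a brake on glucose oxidation, rose by at least 1.21-fold in males and by 2.43 in females (adjusted p = 0.0078). Its fitted male difference, 2.3 (adjusted p = 0.0062), uses vehicle signals below background, so that p-value does not test the bound. Fgf21, a liver hormone, fell in males by 1.38 (adjusted p = 0.025). With slide as a block the Pdk4 differences were 1.88 (adjusted p = 0.13) and 2.58 (adjusted p = 0.070), and the Fgf21 difference was -1.45 (adjusted p = 0.15). In vehicle 1 of the 22 was higher and 6 lower in females, where 5.82% of all genes were higher and 7.95% lower. Among the lower ones was Cyp4a1 (-1.76, adjusted p = 0.014, and -2.94 with slide as a block, adjusted p = 0.072).

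Of 6 tested genes of the aryl hydrocarbon receptor battery outside Cyp1, Aldh3a1 fell in males by 0.97 (adjusted p = 0.011, and -0.66 with slide as a block, adjusted p = 0.21). None passed in females. Over all genes 4.88% were lower in males and 4.13% passed in females. Of 15 tested epoxide hydrolases and eicosanoid enzymes, 2 rose in males, and 1 rose and 2 fell in females, against 5.21% higher in males and 3.00% higher and 1.13% lower in females over all genes. Hpgd, which inactivates prostaglandins, rose by 2.66 in females (adjusted p = 0.0077) and by at least 1.59-fold in males. Its fitted male difference, 2.03 (adjusted p = 0.015), uses vehicle signals below background, so that p-value does not test the bound. Ptgs2, the inducible cyclooxygenase, was at least 6.20-fold lower in dexamethasone in females. The fitted female difference, -4.61 (adjusted p = 0.00022), uses dexamethasone signals below background, so its p-value does not test the bound. Ptgs2 was below background in both male groups, where its lower call (adjusted p = 0.0029) shows no measured fall. With slide as a block the Ptgs2 difference in females was -4.23 (adjusted p = 0.0094), and those of Hpgd were 1.71 in males (adjusted p = 0.19) and 3.08 in females (adjusted p = 0.055). Of 5 tested genes of vitamin D metabolism, Cyp27a1, a sterol hydroxylase that also acts on vitamin D, rose by 1.07 in males (adjusted p = 0.026) and 1.60 in females (adjusted p = 0.0078); with slide as a block these were 0.94 (adjusted p = 0.23) and 1.88 (adjusted p = 0.054). Leaving out 1 array at a time, the calls of Pgrmc2 in males held in 6 of 12 fits, those of Fgf21 in males in 8, Cpt2 and Cyp27a1 in males in 9 and Hpgd in males in 11.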

How the data were processed

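The 12 one-colour arrays were read by Agilent Feature Extraction 9.5.3.1, per the file headers. The deposited processed signal is a linear intensity after background subtraction by that software, per the file headers, without scaling between arrays; the authors' deposited value table holds the same intensity values (540216 of 540216 equal). From it the log2 of the deposited signal was taken, outlier spots were dropped, spots of a probe averaged and the array's 75th percentile subtracted. Probe positions are on rn3, per the file headers; names were updated from the RefSeq table of assembly GRCr8, which named 19951 of 41012 probes, and no annotation of that build was used. The brightest kept probe stood for a gene with several.

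One limma 3.58.1 model (R 4.3.3) with 4 group means was fitted to 26542 genes, with Benjamini-Hochberg adjustment and two-sided tests at 0.05; the fit was tested on simulated data. Errors after differences are SEs of the fit. A positive difference means higher in dexamethasone, or higher in females. The precision is limited by the number of arrays.

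Levels are given by array for genes past the threshold and for Cyp1a1, Cyp1a2, Cyp1b1, Cyp2a1, Cyp2b2, Cyp2e1, Cyp2j3, Cyp4a3, Cyp4a8, Cyp4b1, Cyp4f1 and Cyp4f4 (Cyp2b1, Cyp2d1 and Cyp4a2 were not analysed here); of each gene list, up to 2 rises and 2 falls are named, and 1 listed gene that counts include is not reported here. Members and lists were chosen with earlier results of these data known. Same-numbered arrays pair the samples by the correlation of their deviations from group means over all genes: 0.27, 0.46 and 0.27 in males, 0.42, 0.26 and 0.34 in females, and 0.17, 0.17 and 0.20 between the sexes in dexamethasone. In vehicle the sexes gave 0.11, 0.02 and 0.04. Slide positions come from the scan names in the labels. Other settings tried are given at the end.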

Additional observations from a re-analysis of the deposited data

Results flagged for a closer look

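Cyp4f6 is listed because its responses in the sexes pointed in opposite directions on every pair of arrays with the same replicate number. The share of all genes with this pattern was not computed. The dexamethasone minus vehicle difference was -0.49, -0.45 and -0.25 in males and 0.18, 0.02 and 0.10 in females. The difference between the responses was 0.50 ± 0.25 (limma, adjusted p = 0.48 over all genes), so it did not pass.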

How the results depend on the processing

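The number of members past the threshold was 3 (male response), 2 (female response), 0 (response difference), 9 (sexes in vehicle) and 3 (sexes in dexamethasone). With slide as a block it was 0 in each comparison. Fits within slide 1 for males and within slide 3 for females give the same differences as that block, from 1 array against 3. Their counts are therefore not given. Array weights gave 1 for males, 9 for females and 12 for the sexes in dexamethasone, where 1092, 5008 and 4782 of all genes passed. A fit to only the groups compared gave 0 for males, 3 for the sexes in vehicle and 6 in dexamethasone. Of all genes 243, 795 and 1013 passed in that fit. Quantile normalization, normexp, no filter and a filter for all 12 arrays each gave 1 for females, where 561, 727, 723 and 531 genes passed in all. No filter gave 1 for the response difference, where 6682 genes passed in all. With the replicate number as a replicate block shared by all 12 arrays, the count was 14 for the sexes in vehicle and 8 in dexamethasone. Of all genes 4763 and 1486 passed, and in vehicle the numbers do not pair the samples. With pairs within each sex, added after the data were seen, the count was 6 for males and 3 for females. Of all genes 4173 and 1793 passed. Within these responses and the sexes in dexamethasone the block changed no member call beyond those given above. Leaving out 1 array gave 2 to 3 for males, 0 to 3 for females, 4 to 10 for the sexes in vehicle and 3 to 4 in dexamethasone. Counts over all genes are not given for these fits, so the ranges have no background beside them. Of 17 calls, 9 passed in all 12 such fits. With normexp the Cyp1b1 sex difference in dexamethasone reversed to -0.03. The cause of these shifts was not tested.

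Over all genes, 2678 passed in males, 1096 in females, 3657 between the sexes in vehicle and 771 in dexamethasone. The split in males was 1382 higher and 1296 lower, and 1015 and 2166 with array medians, 2276 and 1131 with quantile normalization, and 911 and 3065 with normexp. In females it was 797 and 299, and 574 and 354 with array medians. In vehicle it was 1546 and 2111, and 2907 and 1728 with quantile normalization, and 1527 and 10855 with normexp. In dexamethasone it was 313 and 458, and 227 and 708 with normexp. Without a filter 11119 genes passed in males, 12528 in vehicle and 6682 in the response difference, where 28 passed with the filter. Signals near background on the male vehicle arrays limit these values.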
